A study of Mus musculus with 24 samples.

Results

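Transcripts of 37 genes that act in mitosis were followed in the liver and bone marrow of Erfe-/- mice after bleeding. The genes were chosen by name: cyclins and their kinase partner, mitotic kinases, the chromosomal passenger complex, the spindle checkpoint, the anaphase machinery, kinetochore proteins, spindle motors, and a chromosome enzyme and antigen that mark dividing cells. All 37 were found on the array, on 70 probes, among 37008 distinct gene names. All 37 were tested in marrow, among 21399 genes, and 22 in liver, among 19649 genes. A gene was tested in a tissue when, at 1 time point or more, a probe of it exceeded background on each of the 4 arrays.

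Every mouse was male and carried the Erfe-/- genotype, which lacks erythroferrone, the hormone that erythroid precursors make after blood loss to lower hepcidin in the liver. There was no wild-type group, so the controls shared the deletion. Mice were bled by puncture behind the eye, and tissue was taken at 0 h (the control), 24 h or 48 h, with 4 mice at each time. The 24 one-colour arrays make 6 groups of 4: liver 0 h, 24 h and 48 h, and marrow 0 h, 24 h and 48 h. The labels do not give the volume of blood drawn, the age of the mice or the extent of the deletion.

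In mitosis, cyclin-dependent kinase 1 bound to B-type cyclins drives chromosome condensation and spindle assembly, and the spindle checkpoint holds back the anaphase-promoting complex until every kinetochore is attached. Most of these transcripts are made late in the cell cycle and are low in cells that do not divide. Adult bone marrow holds many dividing erythroid, myeloid and lymphoid precursors, whereas hepatocytes of a resting adult liver seldom divide. These are transcripts from whole tissue, so fewer dividing cells and less RNA per dividing cell cannot be told apart.

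Levels are log2 processed signals minus the log2 75th percentile of that array, and changes are differences between such levels. Each array's 75th percentile was 361.2 to 473.1 intensity units in liver and 715.0 to 954.7 in marrow. No 2 arrays held identical values. All 10 hepatocyte markers were above background on all 12 liver arrays, and all 12 erythroid markers on all 12 marrow arrays. The library labelled marrow 24 h replicate 2 stood apart: hepatocyte markers there had a median of 13.6% of their mean liver signal, against 0.00154% to 0.0213% on the other 11 marrow arrays. For the mitosis genes as a set, the median change in each comparison that uses that array is given with and without it. Other results that use it, such as single genes, slides, other gene lists and correlations, include it unless stated. The arrays lay on 3 slides, each with 4 liver and 4 marrow arrays of several times.

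The promoters of these genes are shown because many share short sequence elements of late cell cycle genes, and the genes shown are those whose marrow and liver levels differed most clearly. RefSeq promoters of 300 bases, from 250 before to 50 after the start on GRCm38.p6, were matched by symbol for 29 of the 37 genes, in 30 windows. Ccna2, Cdc25c, Foxm1, Aurkb, Incenp, Spc24, Kif20a and Tpx2 were not matched. Stretches from 170 bases before to 30 bases after the start follow for the 6 matched genes with the smallest adjusted p in marrow against liver at 0 h. Capitals mark CCAAT, the letters of the CCAAT box, and TTTGAA or TTTAAA, the letters of the cell cycle genes homology region, on either strand; TTTAAA reads the same on both.
Cdca8 (chr4:124936888-124937087, minus strand): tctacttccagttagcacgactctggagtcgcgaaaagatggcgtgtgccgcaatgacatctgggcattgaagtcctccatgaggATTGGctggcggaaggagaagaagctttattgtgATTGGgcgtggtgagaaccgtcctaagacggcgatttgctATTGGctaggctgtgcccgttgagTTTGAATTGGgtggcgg
Cenpa (chr5:30666716-30666915, plus strand): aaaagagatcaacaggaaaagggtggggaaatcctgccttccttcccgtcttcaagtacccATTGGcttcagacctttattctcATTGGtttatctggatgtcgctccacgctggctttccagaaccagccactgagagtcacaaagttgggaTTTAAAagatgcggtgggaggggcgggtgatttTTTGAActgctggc
Ccnb2 (chr9:70421525-70421724, minus strand): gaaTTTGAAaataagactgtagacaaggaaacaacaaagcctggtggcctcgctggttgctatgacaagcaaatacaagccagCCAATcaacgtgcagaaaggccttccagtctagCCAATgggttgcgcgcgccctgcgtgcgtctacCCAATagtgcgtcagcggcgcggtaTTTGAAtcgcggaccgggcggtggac
Spc25 (chr2:69206184-69206383, minus strand): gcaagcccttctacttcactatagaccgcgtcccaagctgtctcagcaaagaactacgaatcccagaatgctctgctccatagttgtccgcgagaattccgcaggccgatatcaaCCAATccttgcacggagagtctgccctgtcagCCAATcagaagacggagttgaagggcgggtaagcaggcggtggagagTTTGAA
Anln (chr9:22389177-22389376, minus strand): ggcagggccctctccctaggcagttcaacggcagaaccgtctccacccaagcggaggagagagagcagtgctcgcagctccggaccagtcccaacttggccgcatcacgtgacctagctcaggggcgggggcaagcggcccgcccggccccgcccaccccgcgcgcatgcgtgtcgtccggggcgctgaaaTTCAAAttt
Mad2l1 (chr6:66535051-66535250, plus strand): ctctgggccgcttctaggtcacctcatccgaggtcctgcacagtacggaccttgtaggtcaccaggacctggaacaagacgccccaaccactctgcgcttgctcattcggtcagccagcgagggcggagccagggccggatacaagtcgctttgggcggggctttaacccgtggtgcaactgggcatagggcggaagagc
In the Ccnb2 stretch the letters CCAAT began at -87, -54 and -21 and TTTGAA at -167 and 5, counted from the start with no position 0. The Cdca8 stretch held CCAAT on the minus strand at -85, -51, -11 and 19, and TTTGAA at 14; the last CCAAT match overlapped TTTGAA. Cenpa had CCAAT on the minus strand at -109 and -86, TTTAAA at -17 and TTTGAA at 17. Spc25 had CCAAT at -55 and -23 and TTTGAA at 25. Anln had TTTGAA alone, on the minus strand at 22, and the Mad2l1 stretch held neither set of letters.

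Across the 30 windows, 24 held CCAAT (80.0%), against 37.4% of 32851 RefSeq promoters of the same length. At least 2 CCAAT matches stood in 16 windows (53.3%), against 11.7% of all promoters. TTTGAA stood in 23 windows (76.7%), against 17.9%, and TTTAAA in 9 (30%), against 13.2%. TTTGAA or TTTAAA began within 50 bases of the start in 23 windows (76.7%), against 8.28% of all promoters; that distance was chosen after the sequences were seen. These are matches of letters in a fixed window and show no binding.

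Before bleeding, every one of the 37 genes was higher in marrow than in liver. All 37 passed the test (limma, Benjamini-Hochberg adjusted p from 3.05e-17 to 3.8e-08), in a comparison that called 39.6% of 22781 genes higher in marrow and 40.6% lower. The 15 genes not tested in liver entered this comparison through marrow arrays alone, so a high marrow value was built into their selection. For each of the 37 the 4 marrow arrays lay above the 4 liver arrays, against 37.8% of all genes above and 38.4% below. Over the 18 genes whose probe was above background on all 4 liver arrays, the differences ran from 1.52 to 7.97 on the log2 scale with a median of 6.46. Of the rest, 11 were above background on 1 to 3 of the 4 liver arrays and 8 on none. With those 8 at their lower bounds the median of the 37 was 6.41. The median of the fitted differences was 6.73 and depends on how dim signals are treated: normexp background correction, which raises them, brought it to 4.88 with all 37 still called.

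**Figure D1:**
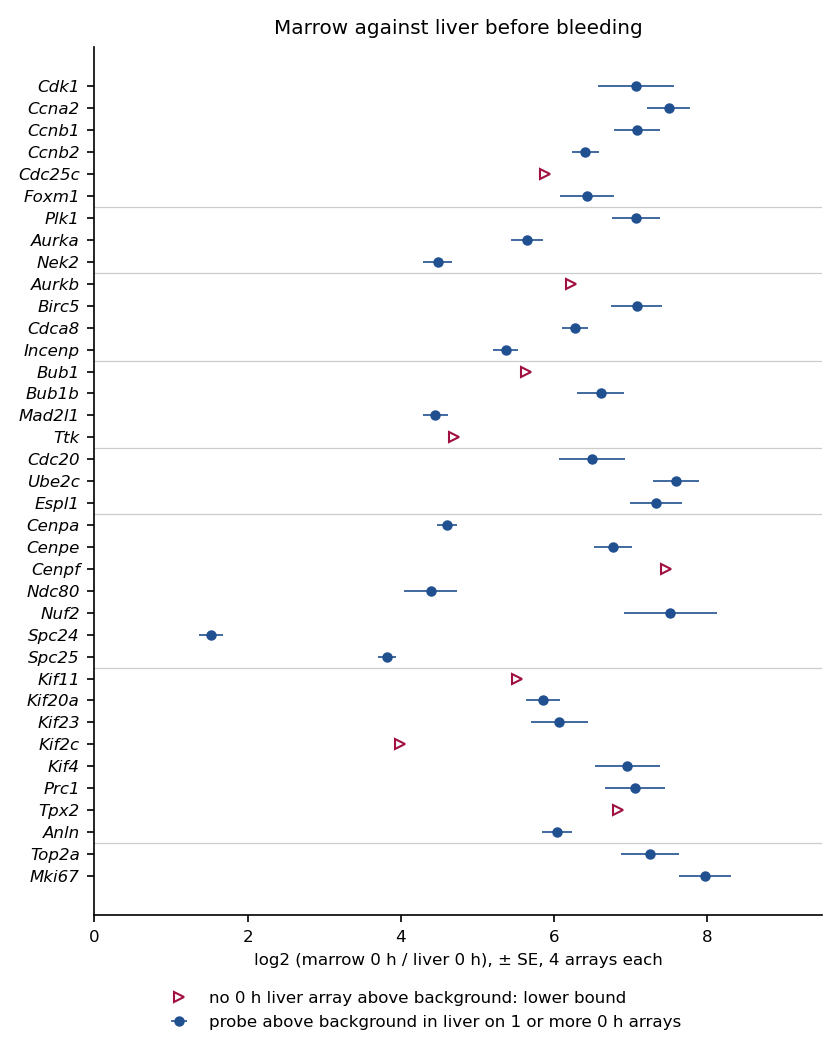
Difference between marrow and liver at 0 h for each of the 37 genes, in log2 units, with the standard error of the fit (4 arrays per tissue). Grey lines separate the role groups, and open triangles are lower bounds for the 8 genes not above background on any liver 0 h array. Another 11 genes, plotted at their fitted difference, were above background on 1 to 3 of the 4 liver arrays; all points lie to the right of 0, from 1.52 for Spc24 upward.

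The proliferation antigen Mki67 was at 6.44 ± 0.10 in marrow and -1.53 ± 0.50 in liver (SD, n = 4 each), a 251-fold difference. Top2a, the topoisomerase that untangles sister chromatids, was 152-fold higher in marrow, at 4.37 ± 0.09 against -2.88 ± 0.51 (SD, n = 4). Both were well above background on all 4 liver arrays. Of the cell cycle engine, Cdk1, the catalytic kinase, stood at 2.37 ± 0.11 in marrow and -4.70 ± 0.24 in liver, where 1 of 4 arrays was above background (SD, n = 4). Its partner Ccnb1 was 135-fold higher in marrow (SE 0.30 on the log2 scale), with 3 of 4 liver arrays above background. The kinase Plk1, which drives centrosome maturation and mitotic entry, was 134-fold higher, and Aurka, the centrosomal Aurora kinase, 50.4-fold. Birc5 (survivin, a passenger complex subunit) was 135-fold higher, and Ube2c, the E2 enzyme of the anaphase-promoting complex, 192-fold.

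For 8 genes no liver 0 h array was above background, so their difference is a lower bound set by the dimmest probes above background there. The bounds were at least 177-fold for Cenpf (an outer kinetochore protein), 114-fold for Tpx2 (a spindle assembly factor that activates Aurka), 74.8-fold for Aurkb (the passenger complex kinase), 59.1-fold for Cdc25c (a phosphatase that activates Cdk1) and 49.5-fold for Bub1 (a checkpoint kinase). Kif11, the motor that pushes spindle poles apart, was at least 45.8-fold higher, the checkpoint kinase Ttk at least 25.8-fold and the depolymerising kinesin Kif2c at least 15.9-fold. In the NDC80 kinetochore complex the subunits Spc24 and Spc25 differed less. Spc24 was 2.86-fold higher in marrow, at 3.56 ± 0.25 against 2.04 ± 0.14 (SD, n = 4), and Spc25 14.1-fold, at 4.70 ± 0.10 against 0.88 ± 0.22 (SD, n = 4). Their partners Ndc80 and Nuf2 had fitted differences of 4.39 and 7.52 on the log2 scale. Both were above background on 1 of 4 liver arrays, so no fold is given.

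In marrow at 24 h none of the 37 genes passed the test, in a comparison that called 217 of 21399 genes (1.01%; 118 higher, 99 lower; limma). At an unadjusted p under 0.05, 1 of the 37 was higher and none lower, against 5.75% of all genes higher and 6.86% lower (12.6% in either direction). For none of the 37 did all 24 h arrays lie above or below all 0 h arrays, against 4.15% and 4.13% of all genes. The 37 changes ran from -0.10 to 0.21 with a median of 0.07, and 28 were above 0, against 44.6% of all genes with a median of -0.02. Without marrow 24 h replicate 2 the median was 0.11, 32 were above 0, 4 had an unadjusted p under 0.05 and again none was called. Without marrow 0 h replicate 2 or 24 h replicate 4, the median was 0.04 each time, and with quantile normalization it was 0.03.

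At 48 h none of the 37 passed either, while 264 of 21399 genes were called (1.23%; 227 higher, 37 lower; limma). The values leaned one way: 36 of 37 changes were above 0, against 50.3% of all genes, and the median was 0.20, against 0.00 for all genes. Unadjusted p was under 0.05 for 12 of the 37, all higher, against 10.2% of all genes higher. For 10 genes the 4 arrays at 48 h lay above the 4 at 0 h, against 8% of all genes, and for none did they lie below, against 4.69%. Those 10 were Ccnb1, Cdk1, Cdca8, Bub1, Ube2c, Cenpa, Ndc80, Nuf2, Kif2c and Tpx2. The largest change was 0.46 and the smallest adjusted p was 0.166, for Ube2c. With each of the 19 alternative treatments of the data no gene was called, and the smallest adjusted p ranged from 0.0591 to 0.417. The 24 h and 48 h comparisons share their 0 h arrays.

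**Figure D2:**
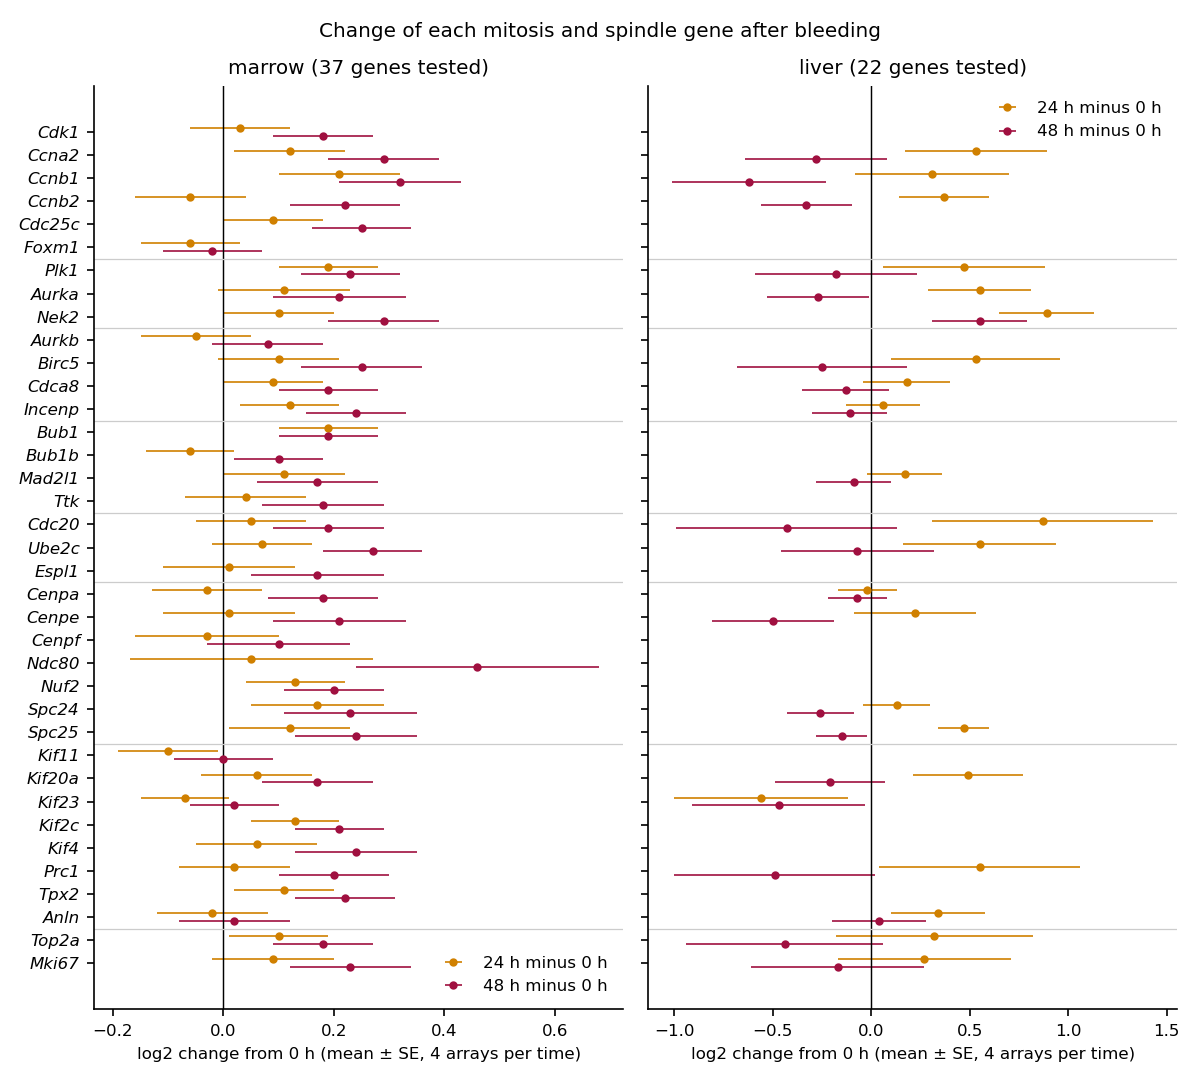
Log2 change of each gene from 0 h to 24 h (orange) and 48 h (red) with the standard error of the fit, in marrow (left, 37 genes) and liver (right, 22 genes), 4 arrays per time; grey lines separate the role groups and the axes differ in range. In marrow 36 of 37 points at 48 h lie above 0 and within 0.46; in liver 20 of 22 lie above 0 at 24 h and 2 of 22 at 48 h, and no gene passed the test at either time in either tissue.

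Each slide held marrow arrays of every time. The median change of the 37 was 0.26 on slide 1, 0.17 on slide 2 and 0.09 on slide 3, with 35, 36 and 30 of 37 genes above 0, and 0.20 with slide as a block. At 24 h the slide medians were 0.15, -0.12 and 0.05; the slide with -0.12 holds marrow 24 h replicate 2, and all genes had a median of -0.12 there. Array by array, the median deviation of the 37 from their 0 h means was 0.00, -0.09, 0.04 and 0.08 at 0 h, 0.08, -0.07, 0.04 and 0.19 at 24 h, and 0.21, 0.36, 0.08 and 0.17 at 48 h (replicates 1 to 4 in each). By this measure 3 of the 48 h arrays lay above all 0 h arrays, and replicate 3 equalled the highest of them.

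Of the genes of mitotic entry, the cyclins and their kinase were slightly higher at 48 h, with none past the test. Their transcription factor was not higher on its brightest probe. Ccnb1, the cyclin that triggers mitosis (chr13:101548722-101548781), was at 3.35, 3.15, 3.37 and 3.44 at 0 h, 3.58, 3.43, 3.44 and 3.69 at 24 h, and 3.56, 3.92, 3.47 and 3.62 at 48 h. The 48 h arrays were all above the 0 h arrays, by 0.32 ± 0.11 (SE; 1.25-fold; adjusted p = 0.186, limma). Its kinase Cdk1 (chr10:68805423-68807832) was at 2.4, 2.21, 2.41 and 2.45 at 0 h, 2.45, 2.19, 2.37 and 2.58 at 24 h, and 2.55, 2.62, 2.54 and 2.5 at 48 h. Here too the 48 h and 0 h arrays did not overlap, with a difference of 0.18 ± 0.09 (SE; adjusted p = 0.352, limma), while the 24 h arrays covered the 0 h range. Foxm1, the transcription factor that drives many late cell cycle genes (chr6:128325837-128325898), was at 2.02, 1.93, 2.17 and 2.21 at 0 h, 2.02, 1.93, 2.02 and 2.12 at 24 h, and 1.99, 2.22, 1.96 and 2.09 at 48 h. Its groups overlapped throughout and its change at 48 h was -0.02 ± 0.09 (SE), the lowest of the 37. With its probes averaged the change was 0.07. Another Foxm1 probe, above background on all 12 marrow arrays, changed by 0.15. Ccna2, Ccnb2 and Cdc25c lay between, at 0.29, 0.22 and 0.25 at 48 h.

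Of the 3 mitotic kinases, Plk1 (chr7:129313220-129313279) was at 4.24, 4.18, 4.29 and 4.32 at 0 h, 4.44, 4.29, 4.49 and 4.58 at 24 h, and 4.51, 4.59, 4.32 and 4.53 at 48 h. At each later time 1 array fell within or at the edge of the 0 h range, and the changes were 0.19 at 24 h and 0.23 at 48 h (SE 0.09 each; adjusted p = 0.386 and 0.221, limma). Nek2, a centrosome-splitting kinase (chr1:193656343-193656402), was at 0.26, 0.31, 0.35 and 0.51 at 0 h, 0.39, 0.41, 0.44 and 0.57 at 24 h, and 0.76, 0.8, 0.4 and 0.61 at 48 h. At 48 h 3 of 4 arrays exceeded all at 0 h, and the change was 0.29 ± 0.10 (SE; adjusted p = 0.189, limma). Aurka (chr2:172181734-172181793) was at 3.78, 3.46, 3.63 and 3.96 at 0 h, 3.79, 3.63, 3.89 and 3.98 at 24 h, and 3.93, 4.07, 3.82 and 3.88 at 48 h. Its 0 h arrays alone spread over most of the range, and its change at 48 h was 0.21 ± 0.12 (SE).

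In the chromosomal passenger complex, which corrects faulty spindle attachments, no gene passed the test at either time. Birc5 (chr11:117716959-117717018) was at 6.12, 5.92, 6.22 and 6.17 at 0 h, 6.18, 6.15, 6.13 and 6.37 at 24 h, and 6.42, 6.59, 6.26 and 6.17 at 48 h. At 48 h 3 arrays exceeded all 0 h arrays, and the change was 0.25 ± 0.11 (SE; adjusted p = 0.277, limma). Aurkb (chr11:68864596-68864655) was at 1.79, 1.76, 1.73 and 1.82 at 0 h, 1.62, 1.52, 1.87 and 1.89 at 24 h, and 1.92, 1.86, 1.67 and 1.98 at 48 h. Its groups overlapped and its change at 48 h was 0.08 ± 0.10 (SE). The scaffold Incenp and the targeting subunit Cdca8 (borealin) changed by 0.24 and 0.19.

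Among the spindle checkpoint genes, Bub1 (chr2:127626988-127627047) was at 1.17, 1.05, 1.07 and 1.23 at 0 h, 1.5, 1.2, 1.22 and 1.35 at 24 h, and 1.27, 1.47, 1.25 and 1.28 at 48 h. It was the gene of this group whose 48 h and 0 h arrays did not overlap, with changes of 0.19 at both times (SE 0.09; adjusted p = 0.416 and 0.333, limma). Bub1b (BubR1, an inhibitor of Cdc20; chr2:118466830-118466889) was at 1.28, 1.1, 1.17 and 1.12 at 0 h, 1.08, 0.97, 1.15 and 1.23 at 24 h, and 1.17, 1.37, 1.18 and 1.34 at 48 h. It overlapped at every time and had the smallest change of the group at 48 h, 0.10 ± 0.08 (SE). Mad2l1 and Ttk were at 0.17 and 0.18.

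Of the anaphase genes, Ube2c (chr2:164598016-164598075) was at 4.95, 4.84, 4.9 and 5.13 at 0 h, 5.02, 4.92, 4.98 and 5.18 at 24 h, and 5.27, 5.32, 5.13 and 5.17 at 48 h. Its 48 h arrays were level with or above the highest 0 h array, by 0.27 ± 0.09 on average (SE; 1.20-fold; adjusted p = 0.166, limma). Espl1, the protease separase that cuts cohesin (chr15:102154674-102154733), was at 2.42, 2.33, 2.47 and 2.5 at 0 h, 2.36, 2.34, 2.47 and 2.6 at 24 h, and 2.68, 2.84, 2.24 and 2.63 at 48 h. Replicate 3 at 48 h was its lowest array of all, and its change was 0.17 ± 0.12 (SE). Cdc20, the activator of the anaphase-promoting complex, changed by 0.19.

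At the kinetochore, Ndc80, which binds microtubules (chr17:71860793-71861755), was at 0.35, 0.26, 0.34 and 0.28 at 0 h, 0.4, 0.24, 0.35 and 0.45 at 24 h, and 0.49, 0.55, 1.64 and 0.38 at 48 h. Its change of 0.46 ± 0.22 (SE; adjusted p = 0.347, limma) was the largest of the 37, but replicate 3 at 48 h lay more than a log2 unit above the other arrays; without it the change was 0.16 (adjusted p = 0.294). Cenpf (chr1:191465934-191465993) was at 2.85, 2.99, 3.01 and 3.13 at 0 h, 2.92, 2.88, 2.89 and 3.18 at 24 h, and 3.22, 3.34, 2.73 and 3.1 at 48 h. Its highest and lowest arrays were both at 48 h, and its change was 0.10 ± 0.13 (SE). Cenpa (the centromeric histone), Cenpe (a kinetochore motor), Nuf2, Spc24 and Spc25 changed by 0.18 to 0.24.

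Of the spindle motors and midzone proteins, Kif4, a chromosome-bound kinesin (chrX:97922085-97922145), was at 1.01, 0.78, 1.05 and 1.09 at 0 h, 0.99, 0.91, 1.05 and 1.22 at 24 h, and 1.21, 1.4, 0.97 and 1.3 at 48 h. At 48 h 3 of 4 arrays exceeded the 0 h arrays, and the change was 0.24 ± 0.11 (SE; adjusted p = 0.324, limma). Kif11 (chr19:37495755-37495814) was at 1.11, 1.05, 0.99 and 0.98 at 0 h, 0.88, 0.8, 1.03 and 1.03 at 24 h, and 1.07, 1.21, 0.83 and 1.03 at 48 h. Its change at 48 h was 0.00 ± 0.09 (SE), with the groups fully overlapping. Kif23 and Anln, which act in cytokinesis, were also near 0 on their brightest probes, at 0.02 each. Their other probes, above background on all 12 marrow arrays, changed by 0.30 for Anln and 0.17, 0.10 and -0.05 for Kif23. Kif2c, Kif20a, Prc1 and Tpx2 were at 0.17 to 0.22.

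Top2a (chr11:98854651-98854710) was at 4.41, 4.4, 4.42 and 4.24 at 0 h, 4.49, 4.31, 4.51 and 4.56 at 24 h, and 4.53, 4.73, 4.36 and 4.57 at 48 h. At 48 h 3 arrays were above the 0 h arrays and 1 was within them, with a change of 0.18 ± 0.09 (SE; adjusted p = 0.365, limma). Mki67 (chr7:142881591-142881650) was at 6.34, 6.42, 6.44 and 6.58 at 0 h, 6.58, 6.45, 6.47 and 6.61 at 24 h, and 6.76, 6.94, 6.34 and 6.67 at 48 h. Here too 3 arrays at 48 h exceeded every 0 h array and replicate 3 equalled the lowest, and the change was 0.23 ± 0.11 (SE; adjusted p = 0.347, limma). Probe positions are those of the array files, on mm9.

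**Figure D3:**
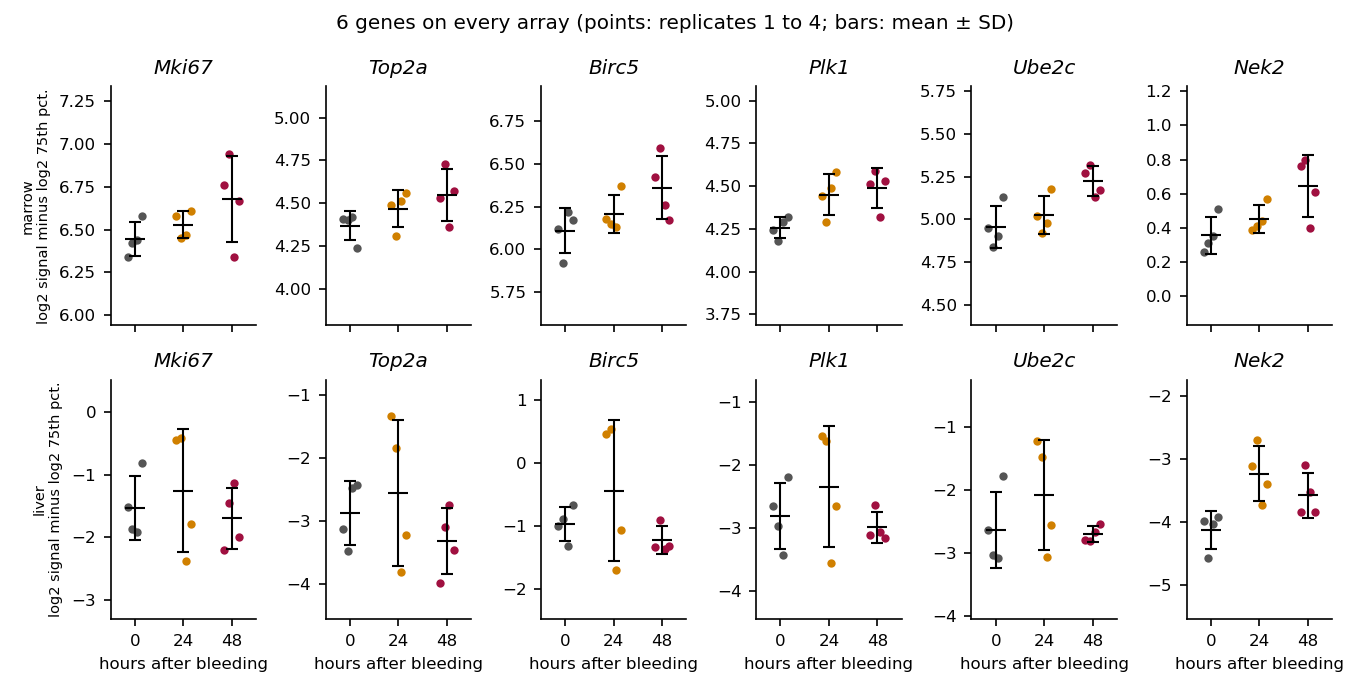
Level of 6 genes on every array, as log2 signal minus the array's log2 75th percentile, in marrow (top) and liver (bottom); points are replicates 1 to 4, bars the mean ± SD, and the panels of a row share a scale length but not an origin. In marrow the points at 48 h sit slightly higher; in liver at 24 h 2 points of Mki67, Top2a, Birc5, Plk1 and Ube2c stand above the others.

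From 24 h to 48 h in marrow none of the 37 was called, in a comparison with 1 call among 21399 genes (0.00467%; limma). Changes ran from 0.00 to 0.40 with a median of 0.13, and all 37 were at or above 0, against 57.8% of all genes above 0. Unadjusted p was under 0.05 for 2 of the 37, Ccnb2 and Ube2c, both higher, against 5.87% of all genes higher and 7.68% in either direction. For none of the 37 did the arrays of the 2 times not overlap, against 2.8% of all genes higher and 0.902% lower. Without marrow 24 h replicate 2 the median was 0.07 with 33 above 0, and without 48 h replicate 2 it was 0.06.

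In liver many of the 37 genes were close to background. At 0 h, 19 of them had a probe above background on all 4 arrays, at 24 h 22 and at 48 h 18. The 15 not tested in liver were Cdk1, Cdc25c, Foxm1, Aurkb, Bub1, Bub1b, Ttk, Espl1, Cenpf, Ndc80, Nuf2, Kif11, Kif2c, Kif4 and Tpx2; Bub1 and Kif2c were not above background on any liver array. The number of the 37 above background was 25, 20, 21 and 27 on the 0 h arrays, 31, 35, 24 and 23 on the 24 h arrays, and 25, 24, 22 and 20 on the 48 h arrays.

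At 24 h none of the 22 tested genes was called in liver, and none of 19649 genes was (0% called, limma). Unadjusted p was under 0.05 for 2 of the 22, both higher, against 4.95% of all genes higher and 5.97% lower. The 22 changes ran from -0.56 to 0.89 with a median of 0.35, and 20 were above 0, against 44.6% of all genes. Ccnb1 and Nek2 reached the liver test through the 24 h arrays alone. Over the 19 genes above background on all 0 h arrays the median was 0.34 with 17 above 0. The arrays of this group differed widely. The median deviation of the 22 from their 0 h means was 1.05, 0.82, -0.44 and 0.07 on replicates 1 to 4 at 24 h, against 0.02, -0.19, -0.27 and 0.27 at 0 h. Replicates 1 and 2 were above every 0 h array and replicate 3 below all of them. Leaving out replicate 1, 2 or 3 gave medians of 0.16, 0.19 and 0.63, and normexp gave 0.19.

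Slides 1 and 2 held 1 liver 24 h array each, so slide and array cannot be told apart in this spread. The median change of the 22 was 1.06 on slide 1 and 0.98 on slide 2, where 21 of 22 genes were above 0 each time, but -0.50 on slide 3 with 4 of 22 above 0. Slide 3 holds 24 h replicates 3 and 4. With slide as a block the median was 0.42, and no gene was called. The direction therefore did not hold within all 3 slides.

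**Figure D4:**
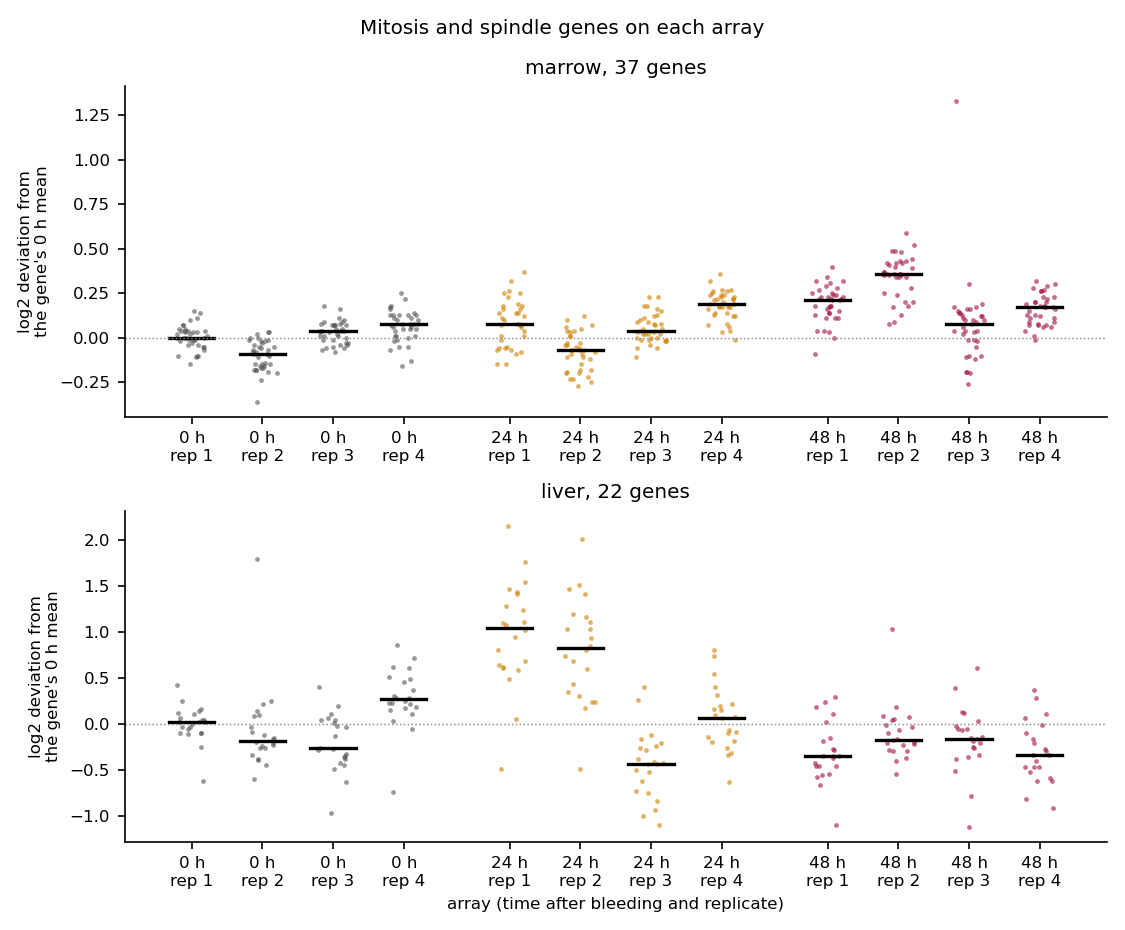
Deviation of each gene from its own 0 h mean, in log2 units, on each of the 12 marrow arrays (top, 37 genes) and 12 liver arrays (bottom, 22 genes); each dot is a gene, black bars are medians, colours are times, and dots are spread sideways at random. In liver the bars of 24 h replicates 1 and 2 stand at 1.05 and 0.82, apart from the other 10; in marrow the bars stay between -0.09 and 0.36.

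The largest fitted liver change at 24 h was that of Nek2, which entered the test only because all 4 arrays at 24 h were above background, so a high value there was built into its selection. It was at -3.99, -4.58, -4.03 and -3.92 at 0 h, -3.11, -2.71, -3.73 and -3.4 at 24 h, and -3.84, -3.1, -3.53 and -3.85 at 48 h, on a probe above background on 9 of 12 liver arrays. Every 24 h and 48 h array exceeded every 0 h array, as held for 2.3% of all genes at 24 h and 1.77% at 48 h, with 3.23% and 2.44% below; of the 22 genes no other did so at either time, and none lay below. The change was 0.89 ± 0.24 at 24 h (SE; adjusted p = 0.334, limma) and 0.55 ± 0.24 at 48 h (adjusted p = 0.751). With normexp the 24 h change was 0.20, and in the authors' deposited values 0.40. Spc25, the next by p, was at 0.94, 0.68, 0.75 and 1.16 at 0 h, 1.52, 1.32, 1.14 and 1.42 at 24 h, and 0.52, 0.92, 0.7 and 0.78 at 48 h. All but 1 of its 24 h arrays exceeded the 0 h arrays, by 0.47 ± 0.13 (SE; adjusted p = 0.340, limma); it was singled out after its values were seen.

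The proliferation markers showed the split between arrays. Mki67 in liver was at -1.51, -1.87, -1.91 and -0.82 at 0 h, -0.45, -0.42, -2.37 and -1.79 at 24 h, and -2.2, -1.45, -1.14 and -2.0 at 48 h. Replicates 1 and 2 at 24 h were its highest 2 arrays and replicate 3 its lowest, and the mean change was 0.27 ± 0.44 (SE; adjusted p = 0.853, limma). Top2a was at -3.13, -3.48, -2.48 and -2.43 at 0 h, -1.34, -1.85, -3.82 and -3.22 at 24 h, and -3.98, -3.1, -2.75 and -3.47 at 48 h. It had the same 2 highest arrays, and its change was 0.32 ± 0.50 (SE). Birc5 was at -1.01, -0.89, -1.32 and -0.67 at 0 h, 0.46, 0.54, -1.7 and -1.07 at 24 h, and -1.33, -0.9, -1.36 and -1.32 at 48 h. Replicates 1 and 2 were above 0 and all 10 other arrays below, for a change of 0.53 ± 0.43 (SE; adjusted p = 0.671, limma).

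The kinases and the anaphase enzyme were highest on the same arrays. Plk1 in liver was at -2.64, -2.97, -3.43 and -2.19 at 0 h, -1.53, -1.62, -3.55 and -2.65 at 24 h, and -3.1, -2.63, -3.06 and -3.15 at 48 h. Aurka was at -1.93, -1.85, -2.22 and -1.77 at 0 h, -0.71, -1.14, -2.2 and -1.54 at 24 h, and -1.93, -2.25, -2.28 and -2.42 at 48 h. For both, replicates 1 and 2 at 24 h were the highest of the 12 arrays; the changes were 0.47 ± 0.41 and 0.55 ± 0.26 (SE). Ube2c was at -2.63, -3.03, -3.08 and -1.78 at 0 h, -1.22, -1.47, -3.07 and -2.56 at 24 h, and -2.79, -2.81, -2.66 and -2.54 at 48 h. The same 2 arrays led, and 0 h replicate 4 came next, for a change of 0.55 ± 0.39 (SE). Ccnb1 was at -3.64, -3.5, -4.72 and -3.14 at 0 h, -2.67, -3.02, -4.19 and -3.9 at 24 h, and -4.21, -4.05, -4.87 and -4.37 at 48 h. Its 0 h arrays spread over more than a log2 unit, and its change was 0.31 ± 0.39 (SE). Kif23 and Cenpa were the 2 genes at or below 0, at -0.56 and -0.02; all 4 Kif23 probes had changes below 0, of which 1 probe was above background on all 12 arrays. On that probe Kif23 was at 0.83 on 0 h replicate 2 and -1.7 to -1.39 on the other 0 h arrays, and without that array its 24 h change was 0.04.

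Markers of blood cells were read on the same arrays, and none was called at 24 h. Late neutrophil markers, of which 6 were tested, had median deviations of 1.67, 1.13, 1.01 and -0.08 on 24 h replicates 1 to 4, against 0.33, -1.63, -1.05 and 2.26 at 0 h. At 24 h 6 to 9 of the 9 late neutrophil markers were above background, and their summed level was 2.38 to 4.63, against 1.06 to 5.05 at 0 h. B cell markers had 0.81, 0.37, 0.24 and 0.12 at 24 h, and early neutrophil markers 1.81, 0.46, 0.65 and -0.17. The 4 megakaryocyte markers tested, of 6, had 1.15, 0.85, 0.66 and 0.32, against 0.17, -0.85, 0.14 and 0.52 at 0 h, with a median change of 0.80. At 24 h 4 to 6 of the 6 were above background, and their summed level was 0.70 to 1.43, against -0.20 to 0.76 at 0 h. The medians of the 10 hepatocyte markers stayed within -0.06 to 0.02 on those 4 arrays. Those of the 7 erythroid markers tested, of 12, stayed within -0.11 to 0.10. Single hepatocyte markers changed by -0.10 to 0.46 and single erythroid markers by -0.41 to 1.16. At an unadjusted p under 0.05 (limma), 2 erythroid markers were higher and 2 lower, against 4.95% and 5.97% of all genes. The part of blood cells in the liver values was not tested.

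At 48 h in liver no gene was called, among the 22 or among all 19649 (0% called, limma); 1 of the 22 (Nek2) had an unadjusted p under 0.05, higher, against 2.56% of all genes higher. Changes ran from -0.62 to 0.55 with a median of -0.23, and 2 of 22 were above 0, against 44.1% of all genes. The median was -0.10 without 0 h replicate 4. Within slides it was -0.32, 0.01 and -0.65. Against 24 h none of the 22 was called (0% of all genes called, limma). At an unadjusted p under 0.05, 9 were lower and none higher, against 3.95% and 3.67% of all genes (7.63% in either direction). The 22 include Ccnb1 and Nek2, which reached the test through the 24 h arrays alone, so a high 24 h value was built into their selection. Ccnb1 is 1 of the 9. The median of the 22 was -0.63. Without 24 h replicate 1 that median was -0.37, and without replicate 3 it was -0.92. It was -0.35 with normexp and -0.41 in the authors' deposited values. On slides 1, 2 and 3 it was -1.37, -0.92 and -0.06, with 2, 1 and 9 of 22 genes above 0. Some blood cell markers were lower too over these arrays, with none called. The median was -1.20 for 6 late neutrophil markers (6 below 0) and -0.38 for 9 B cell markers (9 below 0). It was -0.51 for 5 T cell markers (4 below 0) and -0.40 for 4 early neutrophil markers (3 below 0). Megakaryocyte markers had -0.17 (3 of 4 below 0), macrophage markers -0.11 (5 of 8) and erythroid markers 0.01 (3 of 7). The part of blood cells in these liver values was not tested. Spc25 was the 1 gene whose 48 h arrays all lay below the 24 h arrays, against 1.93% of all genes, by 0.62 on the log2 scale (adjusted p = 0.400, limma). That holds for its brightest probe. Its other probe, above background on all 12 liver arrays, changed from 0 h by 0.46 at 24 h and 0.14 at 48 h.

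The change in marrow was compared with the change in liver directly. At 24 h none of the 37 passed the test for a difference between the tissues (limma, 83 of 22781 genes called, 0.364%). The median was -0.36 for the marrow change minus the liver change. The 37 include the 15 genes too near background to test in liver, for which the comparison cannot decide. At an unadjusted p under 0.05, 3 of the 37 were lower and none higher, against 5.43% and 5.96% of all genes; they were Nek2 at -0.79, and Aurkb and Cdc25c, whose probes were above background on 2 and 1 of 12 liver arrays, so their liver changes are not measured. Over the 22 genes tested in liver the median was -0.32. Without liver 24 h replicate 3 the median was -0.69 and 2 genes passed, Bub1 (adjusted p = 0.0232, limma) and Cdc25c (adjusted p = 0.0236). Bub1 was above background on 0 of 12 liver arrays and Cdc25c on 1, so these calls rest on liver signals at background. Without liver 24 h replicate 1 or 2 the median was -0.13 or -0.18, without marrow 24 h replicate 2 it was -0.31, and with normexp it was -0.08. At 48 h none of the 37 was called (94 of 22781, 0.413%; limma), and the median was 0.40. At an unadjusted p under 0.05, 4 were higher, against 7.2% of all genes: Ccnb1 at 0.94, Ccnb2 at 0.55, Spc24 at 0.49 and Spc25 at 0.39. The Ccnb1 probe was above background on 3 of 4 liver arrays at 0 h and 2 of 4 at 48 h. Another Spc25 probe, above background on all arrays, changed by 0.21 in marrow and 0.14 in liver. The Spc25 probe used changed by 0.24 and -0.15.

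Other genes of the cell cycle give the setting in marrow at 48 h. Among 27 genes of S phase entry and replication, all tested, Ccne1, the cyclin that starts S phase, rose at 48 h by 0.55 ± 0.12 (SE; adjusted p = 0.0473, limma), and none of the 27 fell. The median of the 27 was 0.30, with 26 above 0, against 50.3% of all genes, and 23 higher at an unadjusted p under 0.05, against 10.2%. At 24 h none of the 27 was called, the median was 0.18 and 25 were above 0. Of 77 further mitosis genes tested, 1 rose at 48 h, Cenpp, a centromere protein, by 0.42 ± 0.09 (SE; adjusted p = 0.0473, limma), and none fell; 1.06% of all genes were called higher, and the median of the 77 was 0.14. Of 15 cell cycle inhibitors, 1 rose at 48 h, Gadd45a, a stress-induced inhibitor, by 0.60 ± 0.09 (SE; adjusted p = 0.0113, limma), and 10 of the 15 were below 0. None of 18 condensin and cohesin genes, 15 subunits of the anaphase-promoting complex or 18 cell cycle transcription factors was called at 24 h or 48 h in marrow, and none of these lists had a call in liver.

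Cell type markers changed in the same marrow arrays. Of 12 erythroid markers, all tested, 2 rose at 48 h, against 1.06% of all genes: Tfrc, the transferrin receptor, by 1.02 ± 0.13 (SE; adjusted p = 0.00325, limma) and Rhag, of the Rh complex, by 0.74 ± 0.14 (SE; adjusted p = 0.0357, limma). All 12 were above 0 with a median of 0.51, and their array medians at 48 h were 0.58, 0.69, 0.24 and 0.52. Replicate 2 was the highest and replicate 3 the lowest of the 4 in the erythroid markers, in the S phase genes (0.28, 0.47, 0.21 and 0.25) and in the 37 mitosis genes. At 24 h Tfrc was up by 0.80 ± 0.13 (SE, adjusted p = 0.0143, limma), where 0.551% of all genes were called higher. The other 11 erythroid markers were not called. Of the 12, 8 were above 0 and 4 below at 24 h, from -0.38 to 0.80 with a median of 0.12. At an unadjusted p under 0.05 (limma), 3 were higher and 1 lower, against 5.75% and 6.86% of all genes. None of 11 B cell markers was called at 24 h or 48 h; all were below 0 at both, with medians of -0.67 and -0.52, and 8 were lower at an unadjusted p under 0.05 at 24 h, against 6.86% of all genes. Of 7 macrophage markers none was called; 6 were below 0 at 24 h and 7 at 48 h, with medians of -0.31 and -0.34. Of the 6 T cell markers, Cd3d and Cd8a fell at 24 h, by 0.64 and 1.09 on the log2 scale (adjusted p = 0.0353 and 0.0254, limma), where 0.463% of all genes were called lower. The 24 h values of these marker lists include marrow 24 h replicate 2. On that array the highest of 8 macrophage markers stood at 1060% of its mean marrow signal. The summed erythroid level was 8.16 to 8.60 at 0 h and 8.48 to 8.91 at 48 h. The part of these shifts in the mitosis values was not tested.

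**Figure D5:**
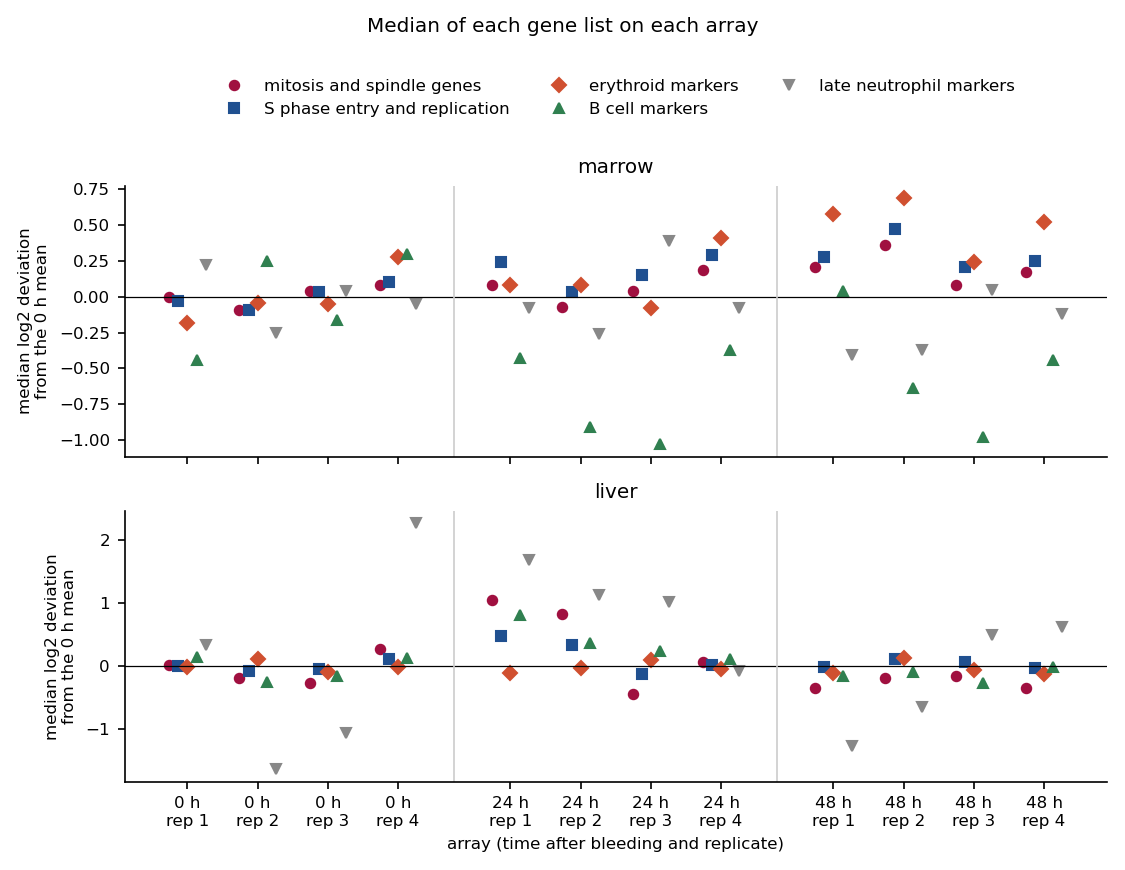
Median log2 deviation from the 0 h mean on each array for the 37 mitosis and spindle genes (22 in liver), the S phase genes, and erythroid, B cell and late neutrophil markers, in marrow (top) and liver (bottom); vertical scales differ. In marrow at 48 h mitosis, S phase and erythroid points are above 0 on all 4 arrays; in liver at 24 h the mitosis points are at 1.05, 0.82, -0.44 and 0.07.

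Within a tissue the 37 genes varied together from array to array. After removal of the group means, the median Pearson correlation over the 666 pairs of the 37 genes was 0.64 over 12 marrow arrays, with 95.0% of pairs above 0, and it was 0.66 over the 231 pairs of the 22 genes in liver, with 92.2% above 0. These values describe genes measured on the same arrays, which share RNA sample and scaling. The marrow value includes marrow 24 h replicate 2. Correlations of other genes were not computed, so the values are not shown to be particular to these genes.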

How the data were processed

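Total RNA from liver and bone marrow was labelled with Cy3 and hybridised to one-colour Agilent mouse arrays, per the labels. The deposited scanner files hold intensity values from Agilent Feature Extraction 10.10.1.1 and, per the submitters' processing notes, limma was used, with no version given there. Per the file headers, the intensity in the processed-signal column was spatially and multiplicatively detrended, with the separate background correction step off. The authors' deposited value table holds log2 values whose columns had medians of 7.74 in liver and 8.31 in marrow. Its columns ranked probes as the processed signal did (Spearman 0.997 to 0.999), and sorted columns of a tissue differed by at most 0.10, so the tissues were scaled apart; its background step is not given in the sources used here. It served as an alternative within tissues.

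Here log2 processed signals were set against each array's 75th percentile over 59305 non-control spots, outlier spots were left out, spots of a probe were averaged (56605 probes), and a gene was read from its brightest kept probe. Probes were named through RefSeq (32994 by accession, 10224 by symbol, 520 by synonym) and 12867 kept the file's name; probe positions are mm9. Genes were fitted with limma 3.58.1 in R 4.3.3, over 12 arrays per tissue and over 24 arrays for comparisons between tissues, with Benjamini-Hochberg adjustment over all genes and a threshold of 0.05. Lower bounds used the lowest signal above background of each array. The number of arrays, 4 per group, limits the precision. The scripts were tested on simulated data.

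The 37 genes and the other lists were chosen with earlier results of these data known. Genes given array by array were Mki67, Top2a, Cdk1, Ccnb1, Plk1, Aurkb, Birc5 and Foxm1 and, in each role group, the genes with the largest and smallest change in marrow at 48 h; promoters were to be those of genes called in marrow, and since none was called after bleeding the comparison of tissues at 0 h was used. Alternatives were other normalizations and background correction, the deposited values, filters, probe averaging, slide and replicate blocks, array weights, other variance models and leaving out each array. Replicate numbers were checked: deviations of same-numbered arrays across times correlated from -0.27 to 0.17, and of same-numbered marrow and liver arrays from 0.01 to 0.15, so the numbers were not taken to pair arrays. The result of 1 gene of the S phase list is not reported here.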

Additional observations from a re-analysis of the deposited data

Results flagged for a closer look

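Among groups of 4 arrays, 6 values lay far from the other 3 by Dixon's test, over 84 groups tested; chance alone gives about 1 in 20. In marrow these were Top2a at 4.24 on 0 h replicate 4 (others 4.40 to 4.42), Bub1 at 1.47 on 48 h replicate 2 (others 1.25 to 1.28), Ndc80 at 1.64 on 48 h replicate 3 (others 0.38 to 0.55) and Cenpf at 3.18 on 24 h replicate 4 (others 2.88 to 2.92). In liver they were Nek2 at -4.58 on 0 h replicate 2 (others -4.03 to -3.92) and Birc5 at -0.90 on 48 h replicate 2 (others -1.36 to -1.32).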

How the results depend on the processing

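With each alternative run, none of the 37 genes was called in marrow or liver after bleeding, and all 37 were called between the tissues at 0 h. The count of genes whose change differed between marrow and liver at 24 h ranged from 0 to 2 as each array was left out, and the 2 came without liver 24 h replicate 3. The replicate block gave 0 calls in every comparison after bleeding, as without it, and 37 between the tissues; it changed no call. The median fitted difference between the tissues at 0 h was 4.88 with normexp and 6.41 to 6.95 with the other alternatives. Changes near 0 switched sign in marrow at 24 h: Mki67 was -0.02 with quantile normalization and -0.01 in the deposited values, Cdk1 -0.01 with quantile normalization, Cenpf 0.02 with array weights, and Espl1 -0.03 with quantile normalization, -0.01 with normexp and in the deposited values, and -0.02 with slide as a block. Foxm1 at 48 h was 0.07 with its probes averaged. Leaving out 1 array gave ranges that crossed 0 in marrow at 24 h for Cdk1 (-0.03 to 0.1), Aurkb (-0.1 to 0.02), Espl1 (-0.04 to 0.05), Cenpf (-0.1 to 0.02) and Kif4 (-0.01 to 0.11), at 48 h for Foxm1 (-0.07 to 0.03) and Kif11 (-0.06 to 0.07), and from 24 h to 48 h for Plk1 (-0.02 to 0.09), Foxm1 (-0.01 to 0.08) and Bub1 (-0.05 to 0.06). In liver they crossed 0 at 24 h for Mki67 (-0.01 to 0.64), Top2a (-0.08 to 0.74) and Ccnb1 (-0.02 to 0.56), and at 48 h for Mki67 (-0.35 to 0.07), Plk1 (-0.38 to 0.03) and Ube2c (-0.22 to 0.21). The cause of these switches was not tested. In liver 15 of the 37 genes were too near background to test, and dim signals there depend on the background step.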
